A study of Danio rerio with 12 samples.

Results

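The brain of adult zebrafish was compared with intact retina, the light-sensing tissue at the back of the eye, across all genes measured on Affymetrix zebrafish arrays. Of the 12 arrays of the study, 4 were used. These were the 1 array of brain, from animals the labels call controls, and 3 arrays of unlesioned retina, namely the retina that the submitters call a "true" control and the control retinas titled 2 and 14 days post-lesion. The other 8 arrays were 2 lesioned retinas of days 2 and 14, which are described at the end, and the control and lesioned retinas of days 3, 5 and 7. The last 6 differ from the rest in the manufacturer's control probe sets, so their 3 control retinas were left out of the comparison and serve as a side check. The control and lesioned retinas came from matched animals with at least 8 per condition, per the design text. Strain, sex, age in months, how the lesion was made, whether a day's control is the fellow eye of a lesioned animal, whether the pineal organ, pituitary, optic nerve or pigment epithelium was removed, and how many animals went onto an array are not stated in the labels or the design text.

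Retina and brain share an origin, since the eye grows out of the embryonic forebrain. The retina holds rods and cones, which turn light into a fall in cyclic GMP through opsins, the G protein transducin and a phosphodiesterase. It also holds bipolar, horizontal and amacrine cells, ganglion cells whose axons leave as the optic nerve, and Müller glia, the radial glia that span it. The brain has many regions, each patterned by its own transcription factors, and in adult fish it keeps radial glia along its ventricles. It also holds oligodendrocytes that wrap axons in myelin, meninges, and hypothalamic cells that release peptide hormones. Zebrafish carry many genes as a pair of copies, named with a and b, from a genome duplication in the ancestor of teleost fish.

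Each probe set has 1 scaled signal intensity per array, not log-transformed. Retina signals are given below in the order true control, day 2 control and day 14 control. Differences are brain minus the mean of the 3 retinas on the log2(signal + 50) scale with the standard error of the fit, so a negative value is higher in retina, and the added 50 makes the differences of dim genes smaller than those of the raw signals. A gene is called when its adjusted p in limma is under 0.05. Each gene is read by the probe set with its highest mean signal, and the signals of different genes are not compared with each other because probe sets differ in how strongly they bind. Because the brain has 1 array, it was assumed to vary like the retinas, so the p-values rest on how much the 3 retina arrays differ from one another. The retinas carry different titles, but the labels do not say whether they came from separate animals. In a whole tissue, fewer cells of a type and less RNA per cell cannot be told apart.

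The 4 arrays had median signals of 193.2 to 204.1, and lower quartiles of 69.5 to 80.0. Their ratio of 5' to 3' signal for GAPDH, a measure of RNA integrity, was 0.692 to 0.854, against 0.103 to 0.245 on the 6 arrays of days 3, 5 and 7. Spearman correlations over the probe sets were 0.973 to 0.976 between retinas and 0.854 to 0.860 between brain and each retina. Of the probe sets tested, 1.23% to 2.3% differed at least 2-fold between retinas taken in pairs, and 19.1% to 19.9% between brain and each retina. The tissue labels were checked against markers. Of the 14 rod and cone markers listed, 10 were found by symbol, and the signal of each was higher in every retina than in brain. The brain markers zic1, oxt, pmchl, cyp19a1b and epd were higher in brain than in every retina, while emx3 stayed between 8.7 and 19.7 on all 4 arrays.

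Brain and retina differed at 2580 of 9301 probe sets tested, or 27.7%, and 3602 had an unadjusted p under 0.05 in limma. Of these calls, 1490 were higher in brain, or 16.0% of those tested, and 1090 were higher in retina, or 11.7%. More differences ran toward brain, but the large ones ran toward retina. A called difference of at least 2-fold was found at 942 probe sets toward brain (10.1%) and at 758 toward retina (8.15%). A called difference of at least 16-fold was found at 22 toward brain (0.237%) and at 123 toward retina (1.32%). The median called difference was 1.16 toward brain and -1.36 toward retina, and the median of all probe sets tested was 0.05. By gene, 905 of 5910 were higher in brain and 676 in retina. Of the called probe sets, 786 had no single gene symbol, 475 of them toward brain and 311 toward retina. In the 831 genes with several tested probe sets, no called probe sets had opposite signs.

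**Figure D1:**
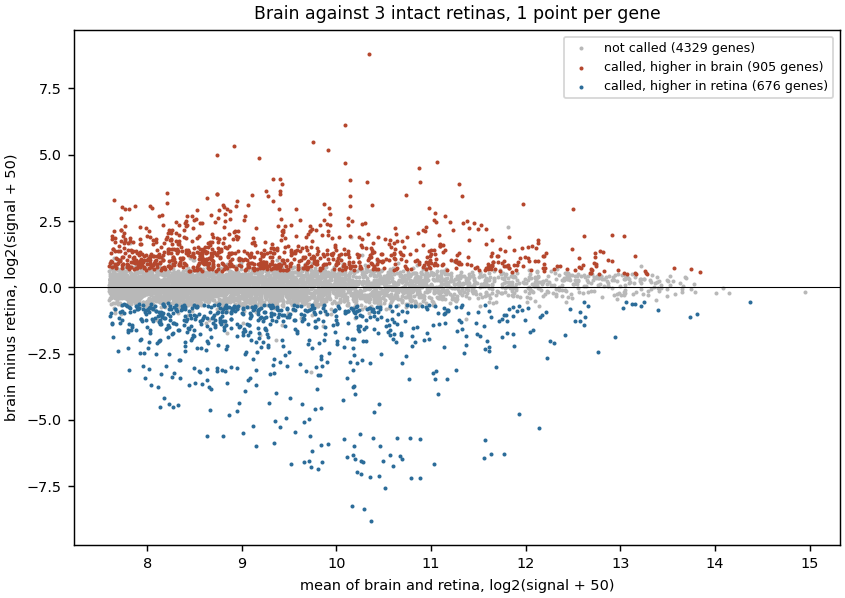
Difference between brain and retina for 5910 genes (vertical axis, brain minus mean of 3 retinas, log2(signal + 50)) against their mean level in the 2 tissues (horizontal axis, same scale), with each gene as 1 point read by its brightest probe set. The 905 genes called higher in brain (red) reach 8.82 and are mostly under 5, while the 676 called higher in retina (blue) reach -8.83 and form a cloud below -5.

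Genes of the photoreceptors led the retina side. The 25 called genes with the largest differences toward retina had differences of -6.39 or beyond and adjusted p from 4.16e-07 to 0.000156. For 18 of them the brain signal lay under the lower quartile of the brain array, 80.0, so the transcript was near the floor of the measurement there. The visual pigments came first in the pathway. The ultraviolet cone opsin opn1sw1 read 106.4 in brain and 22312, 23065 and 22533 in the retinas. The blue cone opsin opn1sw2 read 272.1 in brain and 26026, 28990.3 and 29315 in the retinas, and the green cone opsins opn1mw1 and opn1mw2 were -7.12 ± 0.20 and -7.20 ± 0.18 on the log2 scale. The red cone opsin opn1lw1 read 156.8 in brain and 18683, 23252 and 21614 in the retinas. In each of these opsins the 3 retinas stood within 1.3-fold of each other and far above brain.

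Transducin, which carries the signal from the opsin, followed. The gamma subunit of cones, gngt2b, had the largest difference of all genes on the retina side, at -8.83 ± 0.15 (adjusted p = 4.16e-07), from 12 in brain and 26789, 29190.3 and 28525 in the retinas. Its copy gngt2a was at -7.02 ± 0.17, the cone alpha subunit gnat2 at -7.16 ± 0.18 and the cone beta subunit gnb3b at -6.95 ± 0.20. The rod alpha subunit gnat1 read 312.5 in brain and 26851, 28108 and 29079.6 in the retinas, so brain was far below the retinas but above its own lower quartile. The rod gamma subunit gngt1 behaved alike, with 343.8 in brain and 30148, 30912 and 31622 in the retinas. The beta subunits gnb1a and gnb1b, which other cells also use, differed less. The first read 1114 in brain and 8901, 10185 and 8796 in the retinas, and the second, with the smallest difference of the rod genes (-1.86 ± 0.16), still read 4092 in brain.

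Subunits of the phosphodiesterase that breaks down cyclic GMP were also far higher in retina. The inhibitory cone subunit pde6hb read 15.9 in brain and 20676, 20114 and 19372 in the retinas, a difference of -8.25 ± 0.16. Its copy pde6ha read 663.5 in brain and 29244, 28531 and 27934 in the retinas, a difference of -5.33 ± 0.12. The catalytic cone subunit pde6c spread more among the retinas, with 74.0 in brain and 16698, 10689.8 and 7438 in the retinas, and the rod subunit pde6a was at -6.33 ± 0.20. The guanylate cyclases that restore cyclic GMP were gucy2f (-5.10 ± 0.27) and gucy2d (-4.50 ± 0.51). Their calcium-sensing activators differed by -6.78 ± 0.19 (guca1b), -6.67 ± 0.54 (guca1c) and -6.54 ± 0.46 (guca1aa).

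Among the 25, guca1c, guca1aa, ndrg1b and pde6c had a range of over 2-fold among the retinas. In guca1c the true control stood high, with 22.8 in brain and 14388, 5530.0 and 5017 in the retinas. In guca1aa it stood low, with 37.3 in brain and 4649, 9714 and 11522 in the retinas, and in ndrg1b too, with 98.4 in brain and 9740.5, 19890.0 and 21221 in the retinas. Brain was below every retina in all of these.

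The rest of the group held proteins that tune or house the cascade. The recoverin gene rcvrn2, a calcium sensor that delays the shut-off of the pigment, was at -6.86 ± 0.20, and the phosducins pdca and pdcb, which bind transducin beta and gamma, were at -6.39 ± 0.21 and -6.56 ± 0.24. The disc rim protein rom1b was at -6.60 ± 0.17. The homeodomain factor crx, which switches on photoreceptor genes, read 32.2 in brain and 7795, 7237 and 8701 in the retinas. The guanylate kinase guk1b (-6.57 ± 0.20) and the mitochondrial phosphate carrier slc25a3a (-6.56 ± 0.21) are enzymes or carriers of general metabolism that were nonetheless near the floor in brain by these probe sets. Their copies guk1a (-0.52 ± 0.19, adjusted p = 0.0832) and slc25a3b (0.61 ± 0.20, adjusted p = 0.0567) were not called. The remaining leading genes were gatd3l (-8.36 ± 0.16), zgc:193593 (-7.57 ± 0.22), opn1mw1 and opn1mw2, described above, and aanat2, described with melatonin.

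**Figure D2:**
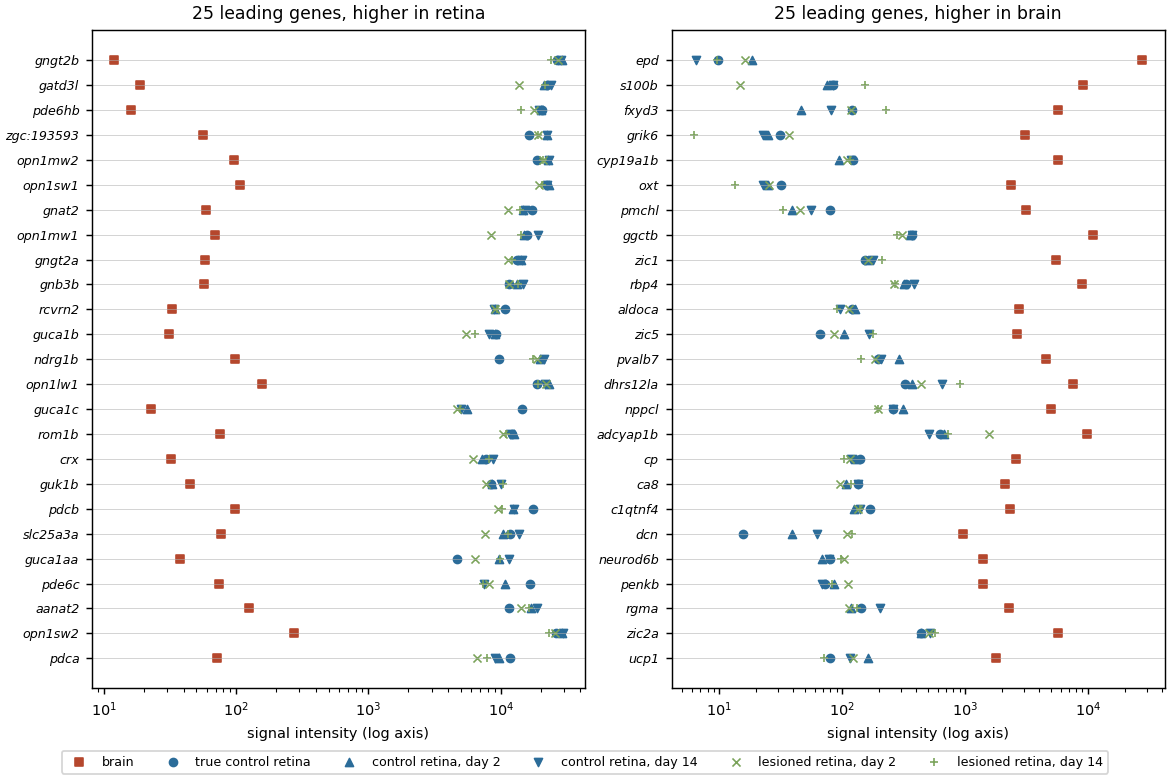
Signal intensity (horizontal log axes) of the 25 genes with the largest called difference toward retina (left) and toward brain (right), with each symbol standing for 1 array. Brain (red squares) lies at 12 for gngt2b against 26789 or more in the control retinas (blue), and at 27559 for epd against 18.4 or less, and the lesioned retinas of days 2 and 14 (green) lie on the retina side for every gene shown.

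As whole lists, 14 of 14 rod phototransduction genes and 19 of 19 tested cone genes were called higher in retina, against 11.7% of all probe sets. The other cone gene on the array, rgs9b, was too dim to test, with 217.3 in brain and 48.0, 84.8 and 57.1 in the retinas. It was called higher in brain with no filter on brightness, where 14 rod and 19 cone genes were again called higher in retina. In any list, members near the floor in 1 tissue were tested only because the other tissue was high. For the list counts that follow, the shares of all probe sets were 16.0% toward brain and 11.7% toward retina. Median differences of the rod and cone lists were -5.95 and -6.67, beside 0.05 for all probe sets tested. The summed signal of the rod list was 6527 in brain and 148235 to 161473 in the retinas, and that of the cone list was 2437 and 289329 to 299914. The smallest rod difference was that of gnb1b and the smallest cone difference that of thrb, a thyroid hormone receptor needed for red cones, at -1.41 ± 0.24. The rod fate factor nr2e3 was lower in the true control than in the other retinas, with 74.9 in brain and 433.0, 1989 and 1422 in the retinas, and its call was lost without the day 2 control (adjusted p = 0.0526) and under robust eBayes (0.0947).

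Genes that build and maintain photoreceptors were called higher in retina in 14 of 15 cases tested, with a median of -3.22. Of the 18 on the array, 15 were called higher in retina with no filter on brightness. They included elovl4b, which makes very long chain fatty acids of disc membranes (-5.70 ± 0.16), unc119.2, a carrier of transducin (-5.53 ± 0.20), and prom1b, a membrane protein of discs (-4.25 ± 0.24). The transcription factors six7 (-4.82 ± 0.50), otx5 (-4.41 ± 0.49), rx1 (-3.29 ± 0.50), rx2 (-2.49 ± 0.26) and rx3 (-3.22 ± 0.24) were among them. The gene that was not called, otx2b, read 730.4 in brain and 641.3, 631.1 and 740.7 in the retinas, with brain inside the range of the retinas. The proneural factor neurod1 was 1 of the smaller differences, at -1.27 ± 0.15, with a brain signal of 3729.

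The visual cycle returns bleached retinal to its light-sensitive form. In the list of visual cycle, pigment epithelium and pigment cell genes, 8 of 11 tested were called higher in retina, with a median of -2.88. Of the 14 on the array, 7 were called higher in retina and 1 in brain with no filter on brightness. The retinoid carrier rbp3 of the space between photoreceptors and pigment epithelium was at -6.31 ± 0.19, and rlbp1a, a retinal-binding protein of Müller glia, at -5.47 ± 0.20. The isomerase rpe65a of the pigment epithelium read 235.3 in brain and 4256, 1572 and 3126 in the retinas, and the melanosome protein pmelb read 53.7 in brain and 536.4, 203.1 and 1215 in the retinas. The call of pmelb was narrow (adjusted p = 0.043) and was lost under 5 alternatives, with adjusted p from 0.0506 under quantile normalization to 0.187 under robust eBayes. The pigment gene dct was not called (-1.72 ± 0.71, adjusted p = 0.121), with 203.5 in brain and 713.4, 352.1 and 1843 in the retinas, but it was called without the day 14 control (adjusted p = 0.0108). In pmelb and dct the day 2 control was the lowest retina and the day 14 control the highest, and in rpe65a the day 2 control was again the lowest. How much pigment epithelium each retina carried was not tested. The exception toward brain was rbp4, the retinol carrier of plasma, with 8864 in brain and 331.9, 318.7 and 381.7 in the retinas. A related gene by name, rbp4l, ran the other way, with 364.2 in brain and 25299, 23166 and 18544 in the retinas.

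**Figure D3:**
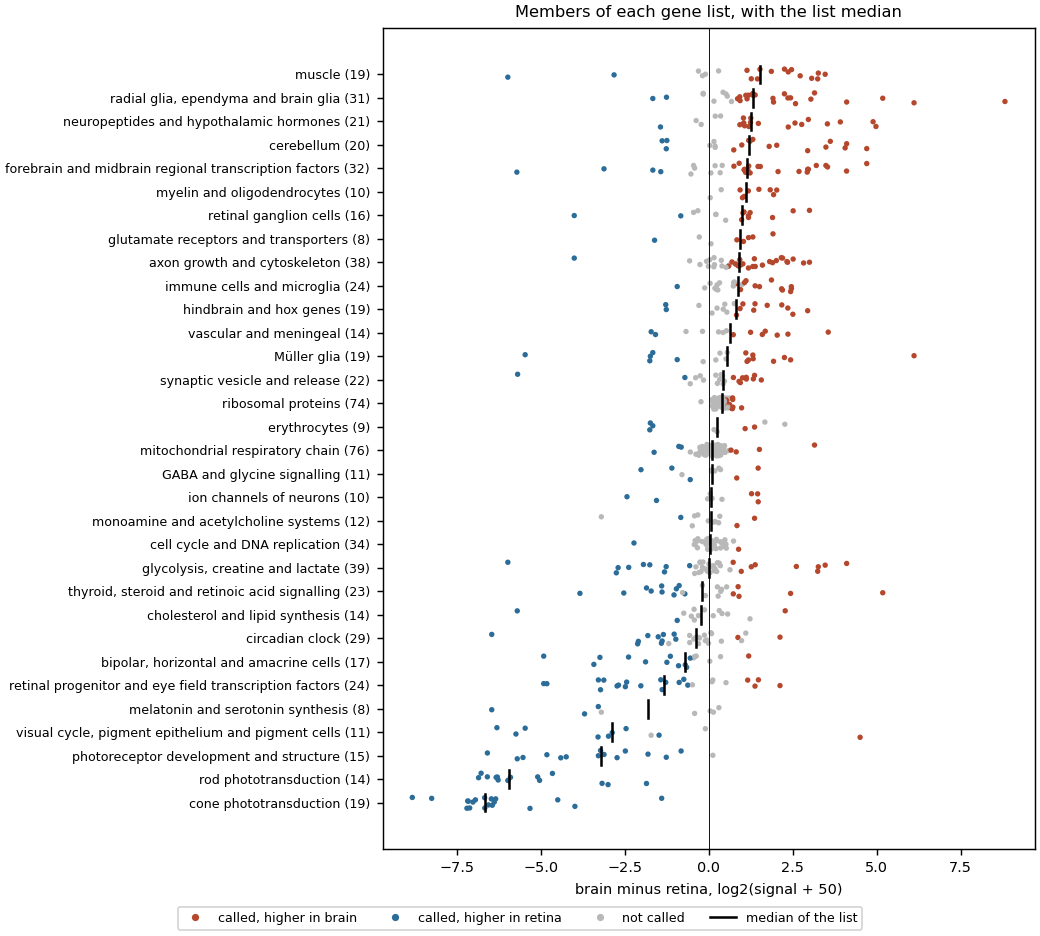
Difference between brain and retina (horizontal axis, log2(signal + 50)) of every tested member of the gene lists with at least 5 tested genes, with the number tested in parentheses. List medians (black bars) run from -6.67 for cone phototransduction to 1.52 for muscle, and members called toward brain (red) and toward retina (blue) occur side by side in lists such as retinal progenitor and eye field factors and glycolysis.

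Genes of inner retinal neurons had a smaller median difference than those of photoreceptors. Of 17 tested genes of bipolar, horizontal and amacrine cells, 11 were called higher in retina and lhx1a higher in brain, with a median of -0.70. Another 5 were too dim to test. Of the 22 on the array, 10 were called higher in retina and 1 in brain with no filter on brightness. The bipolar cell factor vsx1 read 78.5 in brain and 4634, 2682 and 4522 in the retinas, the proneural factor neurod4 116.4 in brain and 1642, 1841 and 1731 in the retinas, and cabp5b, a calcium-binding protein of bipolar cells, 160.9 in brain and 2153, 1493 and 2294 in the retinas. The horizontal cell connexin gja10b was at -2.39 ± 0.34 and the amacrine factor tfap2c at -1.88 ± 0.20. The other tfap2 genes differed less, with tfap2a at -0.90 ± 0.20 and tfap2b not called (-0.38 ± 0.24, adjusted p = 0.298). Genes that neurons of both tissues use to make or store GABA were close, with gad1b at -0.55 ± 0.13 and slc32a1, the vesicular transporter, not called (0.35 ± 0.21, adjusted p = 0.264). The call of gad1b was lost without the true control (adjusted p = 0.0633) or without the day 2 control (adjusted p = 0.0503).

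The list of ganglion cell genes leaned toward brain. Of 16 tested, 9 were called higher in brain and 2 in retina, with a median of 0.99. Most of the 9 are general neuronal or axonal genes, such as gap43, a growth cone protein (3.00 ± 0.20), stmn2a, a microtubule regulator (2.51 ± 0.20), and elavl4, an RNA-binding protein of neurons (1.90 ± 0.25). The ganglion cell factor pou4f2 was not called, with 491.0 in brain and 346.6, 496.8 and 423.0 in the retinas and brain within the range of the retinas. The opposite end was inaa, an internexin neurofilament gene, with 488.0 in brain and 9554, 8625 and 7739 in the retinas. The nicotinic receptor subunit chrnb3b was higher in retina at -0.84 ± 0.20, a call lost without the day 2 control (adjusted p = 0.0597).

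Transcription factors of retinal progenitors and the eye field were higher in retina in 16 of 24 tested cases and in brain in 4, with a median of -1.34. Another 9 were too dim to test. Of the 33 on the array, 15 were called higher in retina and 4 in brain with no filter on brightness. The eye selector pax6a read 342.2 in brain and 3484, 3189 and 3469 in the retinas, and its copy pax6b was at -2.03 ± 0.22. Both six3 copies, six3a (-1.43 ± 0.20) and six3b (-2.69 ± 0.26), six6b (-2.73 ± 0.28) and tbx2b, which acts in ultraviolet cone fate (-2.45 ± 0.21), were higher in retina. Those higher in brain were lhx9 (2.12 ± 0.19), mab21l2 (1.47 ± 0.19), meis2a (1.37 ± 0.19) and nr2f1a (1.16 ± 0.25). The near relative mab21l1 ran the other way, at -0.75 ± 0.21, a call lost without the day 2 control (adjusted p = 0.0907), and so did meis2b, at -1.28 ± 0.20.

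Melatonin synthesis and the clock were described together because retina and pineal organ both make melatonin at night. The enzyme aanat2, which sets the rate of melatonin synthesis, read 125.6 in brain and 11568, 16863 and 18938 in the retinas, with the true control the lowest retina. Its relative aanat1 read 107.6 in brain and 2187, 1823 and 2005 in the retinas. The first enzyme of serotonin synthesis, tph1a, read 230.0 in brain and 671.5, 4422 and 5250.4 in the retinas. The true control there was far below the other retinas, and the gene was not called (-3.20 ± 0.99, adjusted p = 0.0505). Without the true control its difference was -4.12 (adjusted p = 2.22e-06). The pineal pigment exorh read 236.8 in brain and 185.6, 196.1 and 168.6 in the retinas and was not called (adjusted p = 0.302). Melanopsin opn4.1, a photopigment of inner retinal cells, was at -3.29 ± 0.23.

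Clock genes had a median of -0.39. Beside 11.7% and 16.0% of all probe sets, 10 of the 29 tested were called higher in retina and 2 in brain. The list holds aanat2, described above, which is 1 of the 10. Without the day 2 control 6 were called higher in retina and 1 in brain. The cryptochromes cry3a (-1.82 ± 0.28) and cry3b (-2.12 ± 0.27), the repressor nfil3-5 (-2.10 ± 0.17) and the activators bmal1a (-1.03 ± 0.23) and bmal1b (-1.41 ± 0.21) were higher in retina. The repressor bhlhe41 was higher in brain, with 1387 in brain and 135.5, 311.5 and 491.3 in the retinas, a call lost without the day 2 control (adjusted p = 0.083). Several clock genes spread widely among the retinas, and the sample titles give no time of day. The related repressor bhlhe40 read 4029 in brain and 8294, 5190.4 and 1884 in the retinas, highest in the true control and lowest on day 14. The nuclear receptor nr1d2a ran the opposite way, with 541.4 in brain and 300.6, 798.4 and 1702 in the retinas. In both, brain lay within the range of the retinas and the gene was not called, although without the day 14 control bhlhe40 was called higher in retina (-0.70, adjusted p = 0.0351).

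On the brain side the leading gene was epd, which encodes ependymin, the main glycoprotein of fish cerebrospinal fluid, made by cells of the meninges. It read 27559 in brain and 9.7, 18.4 and 6.4 in the retinas, a difference of 8.82 ± 0.20 (adjusted p = 5.18e-07), with every retina near the floor. The other 24 leading genes had differences from 3.48 to 6.11, adjusted p was between 5.18e-07 and 0.000243 over the 25, and none had a retina range of over 2-fold on the log2(signal + 50) scale. In 4 of the 25 every retina lay under its own lower quartile. In 10 of the 25 at least 1 retina did.

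Glial genes were among them. The calcium-binding protein s100b of astroglia read 9024 in brain and 84.7, 75.6 and 84.5 in the retinas. Brain aromatase, cyp19a1b, which makes estrogen in radial glia, read 5744 in brain and 122.0, 93.4 and 116.7 in the retinas. Hypothalamic hormones followed, with the oxytocin gene oxt at 2347 in brain and 22.6 to 31.4 in the retinas and pmchl, a melanin-concentrating hormone gene, at 3106 in brain and 78.9, 38.6 and 55.9 in the retinas. In all 4 genes brain lay far above every retina.

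Regional transcription factors came next. The dorsal midline and cerebellar factor zic1 read 5529 in brain and 153.0, 163.1 and 178.7 in the retinas, and its relatives zic5, with 2616 in brain and 65.3, 102.3 and 164.4 in the retinas, and zic2a (3.48 ± 0.21) were also among the 25, as was the pallial factor neurod6b (3.53 ± 0.19). Genes listed for Purkinje cells of the cerebellum were aldoca, an aldolase (17.2-fold), pvalb7, a parvalbumin (4.06 ± 0.24), and ca8, a carbonic anhydrase-related protein (3.62 ± 0.20). Of these, aldoca is also in the list of brain glia, and which cells gave the signals was not tested. Peptide signals included adcyap1b, which encodes the peptide PACAP (3.91 ± 0.23), penkb, a proenkephalin gene (3.53 ± 0.20), and nppcl, a natriuretic peptide gene (3.96 ± 0.20). The repulsive guidance molecule rgma was at 3.52 ± 0.25.

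The others had roles in transport, metabolism or matrix. They were fxyd3, of the family that tunes the sodium pump (5.48 ± 0.31), grik6, a kainate receptor gene by its symbol (5.35 ± 0.20), and ggctb, a gamma-glutamylcyclotransferase gene (4.72 ± 0.20). With them were rbp4, cp, which encodes the copper protein ceruloplasmin (3.89 ± 0.19), dcn, which encodes the matrix proteoglycan decorin (3.55 ± 0.31), and ucp1, a mitochondrial uncoupling protein gene (3.48 ± 0.28). The list closed with dhrs12la (3.98 ± 0.35) and c1qtnf4 (3.62 ± 0.21).

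Regional patterning genes as lists leaned toward brain, with exceptions. Of 54 forebrain and midbrain factors on the array, 32 were bright enough to test, and of those 21 were called higher in brain, against 16.0% of all probe sets, and 4 higher in retina, with a median of 1.13. Members near the floor in retina were tested only because brain was high. With no filter on brightness, 33 of the 54 were called higher in brain and 5 in retina, beside 1605 and 1013 of 15502 probe sets. Toward brain the neuronal factor gata3 read 965.9 in brain and 77.8, 105.4 and 69.6 in the retinas, pou3f2b read 844.1 in brain and 49.3, 44.2 and 48.8 in the retinas, and the cortical field gene emx2 read 556.0 in brain and 9.1, 33.2 and 45.5 in the retinas, and every retina lay far below brain. Toward retina, foxg1b, a copy of the telencephalic factor foxg1a, read 99.6 in brain and 8267, 7073 and 8165 in the retinas. The forebrain factor fezf2 read 25.7 in brain and 676.5, 629.6 and 531.0 in the retinas, and gbx2, a factor of the boundary between midbrain and hindbrain, read 255.6 in brain and 970.2, 804.7 and 1000.4 in the retinas. The fourth was six3a, described above.

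Of 60 hindbrain and hox genes on the array, 41 were too dim to test. Of the 19 tested, 10 were higher in brain and 2, meis2b and neurod1, higher in retina, with a median of 0.82. With no filter on brightness, 18 of the 60 were called higher in brain and 2 higher in retina. The hindbrain hox genes hoxb5a (2.50 ± 0.20), hoxb5b (2.17 ± 0.30) and hoxb3a (1.74 ± 0.27) and the engrailed genes en2a (2.94 ± 0.32) and en1b (2.35 ± 0.40) were higher in brain. The engrailed gene en2a read 569.1 in brain and 9.4, 45.7 and 42.1 in the retinas, with every retina under its own lower quartile. Of 20 cerebellar genes tested, 13 were higher in brain and 3 in retina, with a median of 1.21. Besides the Purkinje genes, cbln1, a synaptic organizer of granule cells, was at 1.80 ± 0.21.

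Neuropeptide and hormone genes were higher in brain in 16 of 21 cases tested, with a median of 1.24, and 8 more were too dim to test. Of the 29 on the array, 19 were called higher in brain and 1 in retina with no filter on brightness. The somatostatin gene sst1.1 read 2506 in brain and 312.2, 329.1 and 338.0 in the retinas, the relaxin gene rln3a of the hindbrain read 1237 in brain and 205.9, 39.5 and 146.8 in the retinas, and pyya, a peptide YY gene, read 1615 in brain and 211.0, 287.5 and 203.5 in the retinas. The vasopressin gene avp (1.25 ± 0.25), npy (1.06 ± 0.20) and gnrh2 (1.24 ± 0.21) had smaller differences and were also called. The granins, which pack hormones into dense vesicles, split. The chromogranin gene chga was higher in brain (2.36 ± 0.19), scg2a was not called (0.19 ± 0.19, adjusted p = 0.514), and scg3 was the 1 gene of the list higher in retina, with 3769.5 in brain and 9779.5, 10049 and 11185 in the retinas.

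Genes of glia were counted in overlapping lists. Of 31 genes of radial glia, ependyma and brain glia tested, 22 were called higher in brain and 2, aqp1a.1 and mdka, higher in retina, with a median of 1.31. Of 19 Müller glia genes tested, 9 were higher in brain and 5 in retina, beside 16.0% and 11.7% of all probe sets. Their median was 0.55. Both lists hold gfap, vim, s100b and other astroglial genes. The intermediate filament gene gfap read 1132 in brain and 444.9, 584.1 and 484.8 in the retinas and vim read 1724 in brain and 720.7, 668.9 and 898.2 in the retinas, so brain was above every retina by a modest step. The gap junction gene gja1b read 11874 in brain and 1279, 1224 and 1394 in the retinas, and the neural stem cell factors sox3 (2.58 ± 0.19) and sox19a (3.04 ± 0.30) were higher in brain, whereas sox2 was not called (0.51 ± 0.22, adjusted p = 0.132) unless the day 14 control was left out (adjusted p = 0.0499).

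Toward retina stood rlbp1a, given above, and the carbonic anhydrases cahz (-1.76 ± 0.18) and ca2 (-1.74 ± 0.29), the water channel aqp1a.1 (-1.67 ± 0.29) and apoeb, an apolipoprotein E gene (-0.94 ± 0.16). Glutamine synthetase, which clears glutamate in both kinds of glia, was split between its copies. The copy glula read 12108 in brain and 14009.8, 13090.5 and 13801 in the retinas and was not called (adjusted p = 0.349), and its small difference of -0.17 ± 0.12 turned to 0.18 under quantile normalization. The copy glulb read 5959 in brain and 951.9, 852.2 and 1473 in the retinas, a difference of 2.43 ± 0.31.

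Myelin genes were higher in brain in 8 of 10 cases tested, with a median of 1.11, and 5 of 9 were called without the day 2 control. The myelin basic protein gene mbpa read 16361 in brain and 3563, 3281 and 6641 in the retinas, so every retina held a clear signal, and the day 14 control the most of the 3. The copy mbpb read 612.9 in brain and 325.6, 303.9 and 224.1 in the retinas, a call lost without the day 2 control (adjusted p = 0.056). Further, cldnk, a claudin of myelin, read 2087 in brain and 634.1, 598.3 and 944.4 in the retinas, and the oligodendrocyte factor olig2 read 778.1 in brain and 160.4, 127.6 and 177.4 in the retinas. The oligodendrocyte factor sox10 was not called (0.37 ± 0.20, adjusted p = 0.221).

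Transmitter and synapse lists differed in how many members were called. Of 8 glutamate genes, 5 were higher in brain and grik1a, a kainate receptor subunit, higher in retina (-1.62 ± 0.21), with a median of 0.93. The AMPA receptor subunits gria2a (1.03 ± 0.27) and gria2b (1.91 ± 0.23) and the transporters slc1a2b (1.18 ± 0.16) and slc1a3a (1.31 ± 0.21) were higher in brain. The NMDA subunit grin1a (0.83 ± 0.23) lost its call without the day 2 control (adjusted p = 0.0751). Of 11 GABA and glycine genes, 2 were higher in brain and 3 in retina, beside 16.0% and 11.7% of all probe sets, with a median of 0.09. Without the day 2 control 1 gene was called in each direction. The glycine receptor subunits glra3 (-1.10 ± 0.24) and glra4b (-2.02 ± 0.33) were higher in retina, and the first of these lost its call without the day 2 control (adjusted p = 0.0507).

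Of 22 genes of the synaptic vesicle and its release, 9 were higher in brain and 2 in retina, with a median of 0.42. The shares of all probe sets were 16.0% and 11.7%. The vesicle protein syn1 read 1282 in brain and 439.6, 387.1 and 379.8 in the retinas and the complexin cplx2a read 8855 in brain and 3884, 4308 and 4029 in the retinas, with brain above every retina. Synaptotagmin genes were unequal, since syt5a read 194.1 in brain and 12535, 12837 and 12398 in the retinas, syt11a was higher in brain, with 5879.7 in brain and 2868, 3015 and 2842 in the retinas, and syt1a was not called (0.25 ± 0.17, adjusted p = 0.326). Of 10 ion channel genes, 3 were higher in brain and 2 in retina, beside 16.0% and 11.7% of all probe sets. The list median was 0.07. The sodium channel subunits scn8aa (1.27 ± 0.26) and scn4bb (1.45 ± 0.23) were higher in brain, and cacnb2b, a calcium channel subunit found at photoreceptor synapses in mammals, read 177.6 in brain and 1091, 1072 and 1415 in the retinas. Of 12 monoamine and acetylcholine genes, 2 were higher in brain and 1 in retina, again near the shares of all probe sets, with a median of 0.06.

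Genes of axon growth and the cytoskeleton were higher in brain in 23 of 38 cases tested and in retina in 1, inaa, with a median of 0.89. The beta tubulin tubb2 read 5567 in brain and 763.1, 599.6 and 902.5 in the retinas, marcksb, an actin-binding protein of growth cones, read 6582 in brain and 1198, 991.2 and 1669.6 in the retinas, and stmn4 read 6484 in brain and 1555, 1392 and 1212 in the retinas. Abundant members differed little. The beta tubulin tubb4b read 11129 in brain and 10275, 7929.6 and 11964 in the retinas and was not called, and tmsb4x, an actin monomer binder, read 17960.3 in brain and 12913, 12356 and 10756 in the retinas and was called at 0.58 ± 0.14, though not without the day 2 control (adjusted p = 0.0548).

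Genes named as an a and b pair were set side by side. This comparison and the pairs named were chosen after the values were seen. Pairs were formed by name alone. Both genes were tested in 420 such pairs, and 32.6% of these genes were called. Both genes were called in 65 pairs, or 15.5%, in the same direction in 48 (24 toward brain and 24 toward retina) and in opposite directions in 17, or 26.2% of the 65. In 144 pairs 1 gene was called and in 211 neither. The count of opposite pairs changed when 1 retina was left out, with 9 of the 17 left without the day 2 control, 11 without the true control, and 23 opposite pairs without the day 14 control. In the same fits both genes were called in 39, 54 and 81 pairs, and 23.1%, 20.4% and 28.4% of those were opposite. Some pairs share a name without being copies from the duplication, such as coro1a and coro1b. Others are different subunits of 1 enzyme, such as sdha and sdhb, pcca and pccb, or bckdha and bckdhb. How many of the 420 pairs are not copies was not counted, so the counts do not describe duplicated genes alone.

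Among the opposite pairs the largest gap was in cavin2a (-3.61 ± 0.37) and cavin2b (0.86 ± 0.20), which encode coat proteins of caveolae. The sodium pump subunits atp1b1a (-0.67 ± 0.20) and atp1b1b (3.00 ± 0.27) followed, and atp1b1b read 5648 in brain and 585.9, 852.5 and 583.5 in the retinas. The homeodomain factor meis2a read 1164 in brain and 415.1, 397.3 and 444.2 in the retinas, whereas meis2b read 461.4 in brain and 1158, 1148 and 1285 in the retinas. The growth factor midkine gave mdka at -1.26 ± 0.23 and mdkb at 0.92 ± 0.19. The respiratory chain gene ndufa4a was at -0.82 ± 0.17 whereas ndufa4b read 2524 in brain and 901.0, 784.1 and 891.6 in the retinas. The vesicle fusion protein SNAP-25 gave snap25a at 0.73 ± 0.14 and snap25b at -0.71 ± 0.13. Calls of atp1b1a were lost without the true control (adjusted p = 0.105) or the day 2 control (adjusted p = 0.109), and that of cavin2b without the day 2 control (adjusted p = 0.0566).

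**Figure D4:**
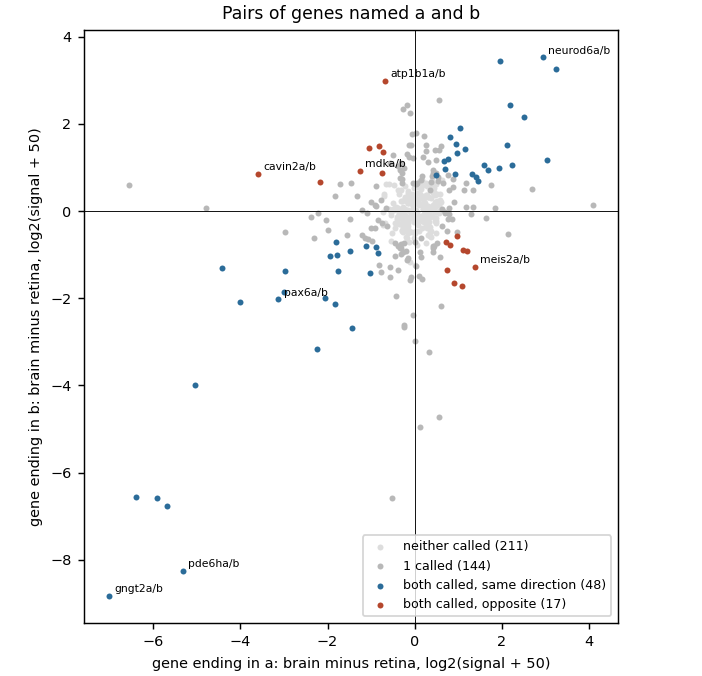
Brain minus retina (log2(signal + 50)) of the gene ending in a (horizontal axis) and the gene ending in b (vertical axis) for 420 pairs, with each point 1 pair. The 48 pairs with both genes called in the same direction (blue) reach -7.02 and -8.83 in gngt2a and gngt2b, and the 17 called in opposite directions (red) include cavin2a at -3.61 with cavin2b at 0.86.

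Energy metabolism held related genes called in opposite directions. Of 39 glycolysis, creatine and lactate genes tested, 9 were higher in brain and 9 in retina, with a median of 0.00. The shares of all probe sets were 16.0% and 11.7%. The mitochondrial creatine kinases differed, since ckmt2a, the sarcomeric type, read 126.8 in brain and 10578, 10967 and 11949.8 in the retinas, and ckmt1, the ubiquitous type, read 2689 in brain and 327.5, 392.9 and 496.3 in the retinas. The cytosolic brain-type kinase ckbb read 17255 in brain and 26476, 25038 and 25563 in the retinas, a small difference of -0.57 ± 0.10 that turned to 0.08 under quantile normalization. Enolase eno1b (-2.39 ± 0.18), lactate dehydrogenase ldhbb (-1.95 ± 0.20) and pfkfb3, a regulator of glycolysis (-1.76 ± 0.36), were higher in retina, the last not without the day 2 control (adjusted p = 0.0645), while gapdh read 3719.5 in brain and 269.4, 385.3 and 237.4 in the retinas. The related gapdhs was bright in both tissues, with 16702 in brain and 19408, 19371 and 20131 in the retinas, and was not called, with a difference of -0.23 ± 0.10 that turned to 0.24 under quantile normalization.

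Ribosomal proteins and the respiratory chain are used by nearly every cell. Of 74 ribosomal protein genes, 12 were called higher in brain, a share of the list close to the 16.0% of all probe sets, and the median was 0.38. The called ones had differences from 0.49 (rpl35) to 0.97 (rps27l), and most of these calls were lost when 1 retina was left out. Without the true control 3 ribosomal genes were called, without the day 2 control also 3, and without the day 14 control 28. Calls toward brain over all probe sets moved the same way, to 1357, 1067 and 1687. Why the calls were lost was not tested. Of the 12, 10 lost their call in at least 1 of these fits, with adjusted p from 0.051 (rpl36a) to 0.114 (rps14). The count also depended on normalization, with 39 of the 74 called higher in brain under quantile normalization and 5 under median centring. Over all 9301 probe sets, quantile normalization gave 1538 calls toward brain and median centring 1361. The median of 76 respiratory chain genes was 0.11. Of these, 4 were higher in brain and 3 in retina, below the 16.0% and 11.7% of all probe sets. They were led by cox6b1, with 2737 in brain and 289.4, 285.3 and 224.7 in the retinas, and by cox4i2, with 1357 in brain and 3442, 5928 and 3912 in the retinas. Of 34 cell cycle genes tested, top2a, a topoisomerase of dividing cells, was higher in brain (0.88 ± 0.21) and hmgb2a, a chromatin protein, higher in retina (-2.23 ± 0.20), and 32 others were too dim to test. With 1 gene called each way, this list was below the shares of all probe sets. Of 14 cholesterol and lipid genes, fads2, a fatty acid desaturase, was higher in brain (2.27 ± 0.48), and elovl4b and apoeb were higher in retina.

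In thyroid, steroid and retinoic acid signalling, 5 of 23 genes were higher in brain and 10 in retina. The shares of all probe sets were 16.0% and 11.7%. The list median was -0.19, and 3 of its genes were called toward brain without the day 2 control. Enzymes that break down retinoic acid ran in opposite directions. The gene cyp26a1 read 165.0 in brain and 737.0, 670.6 and 783.1 in the retinas and cyp26b1 read 823.1 in brain and 144.0, 95.8 and 99.5 in the retinas. The enzyme hsd11b2, which inactivates cortisol, read 540.3 in brain and 3683, 3291 and 3147 in the retinas, and the phosphatase dusp1, which stress and steroid signals induce, read 57.7 in brain and 1359.7, 1913 and 1273 in the retinas. All retinas lay above brain in both. The glucocorticoid receptor nr3c1 was at -0.71 ± 0.20, a call lost without the true control (adjusted p = 0.0686) or the day 2 control (adjusted p = 0.0943).

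Markers of other tissues and cells were read in the same arrays. Of 39 muscle genes on the array, 19 were tested, 13 of them higher in brain and 2 higher in retina, with a median of 1.52. With no filter on brightness, 19 of the 39 were called higher in brain and 2 in retina. The muscle creatine kinase ckma read 1473 in brain and 78.7, 149.2 and 113.3 in the retinas, the fast myosin light chain mylpfa read 729.6 in brain and 84.6, 135.2 and 89.8 in the retinas and the calcium pump atp2a1 read 1002 in brain and 74.1, 173.5 and 97.2 in the retinas. The 2 toward retina were ckmt2a and the myoglobin gene mb, with 205.3 in brain and 1367, 1474 and 2677 in the retinas. The summed signal of the muscle list was 18468 in brain and 16686 to 19239 in the retinas. It was 18135 in brain and 4612 to 5160.5 in the retinas without ckmt2a and mb, which made up most of each retina sum. These were the members called higher in retina, so leaving them out moves the sum toward brain by itself. Genes such as gapdh and atp2a1 are not limited to muscle, and the part of muscle tissue in the differences was not tested.

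Immune and microglial genes were higher in brain in 12 of 24 cases tested and in retina in 1, apoeb, with a median of 0.86. With no filter on brightness, 12 of the 42 immune genes on the array were called higher in brain and 1 in retina. Their summed signal was 41416 in brain and 23534 to 25230 in the retinas. The antigen presentation genes cd74a (2.19 ± 0.23), cd74b (2.43 ± 0.29) and b2m (2.46 ± 0.25) and the leukocyte actin-bundling protein lcp1, with 398.5 in brain and 25.3, 41.1 and 95.9 in the retinas, were higher in brain. The microglial receptor csf1ra lay between 8.2 and 18.5 on all 4 arrays. Beside 16.0% and 11.7% of all probe sets, 7 of 14 vascular and meningeal genes tested were higher in brain and 2 in retina. Their median was 0.63, and with no filter on brightness 12 of 32 were called higher in brain and 2 in retina. Their summed signal was 13196 in brain and 6507 to 8144 in the retinas. The endothelial receptor kdrl read 655.0 in brain and 182.6, 166.9 and 203.9 in the retinas, a call lost when the control retinas of days 3, 5 and 7 were added with a term for the array set (adjusted p = 0.0567), and the pericyte gene rgs5a read 249.5 in brain and 1093, 601.9 and 931.3 in the retinas. Keratocan, kera, a proteoglycan of the cornea named after its value was seen, ran toward retina, with 35.4 in brain and 3352, 5913 and 5936 in the retinas.

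Erythrocyte genes were uneven among the retinas. The alpha globin hbaa1 read 7814 in brain and 1000.0, 597.5 and 6429 in the retinas and the beta globin hbba2 read 352.7 in brain and 33.0, 9.9 and 360.2 in the retinas. In both the day 14 control stood near brain and the other retinas far below, and neither was called (adjusted p = 0.173 and 0.236). Without the day 14 control hbaa1 was called higher in brain (3.25, adjusted p = 3.03e-07). Of 9 tested genes of the list, 2 were higher in brain and 3 in retina, beside 16.0% and 11.7% of all probe sets. The list median was 0.25. The 3 toward retina were cahz, ca2 and aqp1a.1, which are also in the Müller glia list, and the 2 toward brain, alas2 and nt5c2l1, lost their call with the 6 retinas and the term for the array set (adjusted p = 0.322 and 0.18). The summed signal of the list was 15363 in brain and 17116 to 23223 in the retinas. Without those 3 genes it was 10707 in brain and 2832, 1992 and 8527 in the retinas, with the day 14 control nearest to brain. Leaving out the members called higher in retina moves a sum toward brain by itself. No difference in erythrocytes can be read from that sum. The lens crystallin cryaa lay between 24.6 and 30.8 on all 4 arrays, so this lens gene was near the floor. Of 10 lens and cornea genes on the array, 9 were too dim to test, and the other, the keratin krt5, was higher in brain (2.36 ± 0.25), a call lost with the same 6 retinas and term (adjusted p = 0.116). The 5 pituitary hormone genes were all too dim to test, with a summed signal of 562 in brain and 251.7 to 370.5 in the retinas. Of these pomca read 215.0 in brain and 7.0 to 37.6 in the retinas. The part that any of these tissues plays in the differences between brain and retina was not tested.

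**Figure D5:**
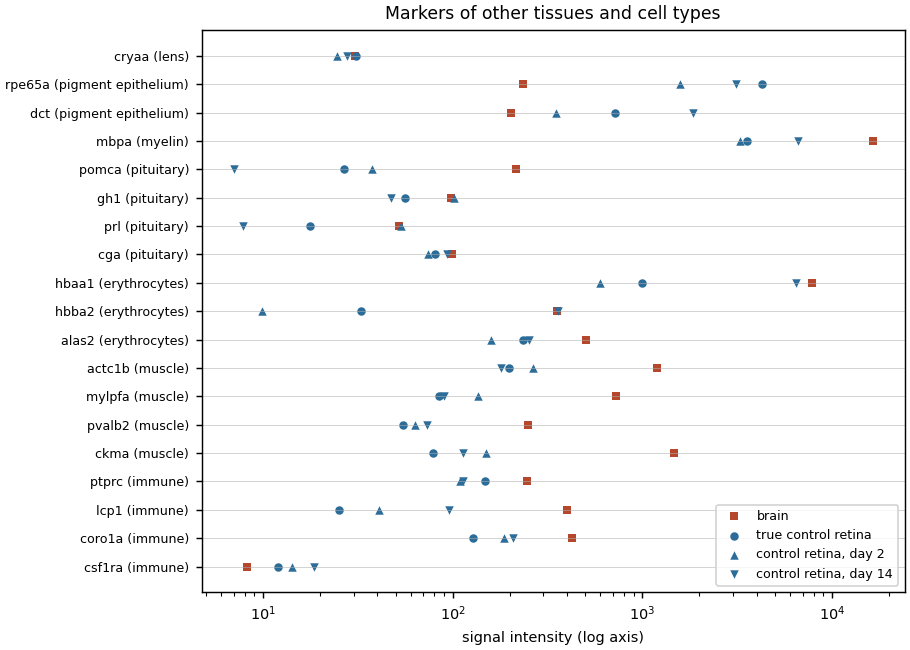
Signal intensity (horizontal log axis) of markers of tissues and cell types other than neural retina and brain neurons, with 1 symbol per array. The muscle marker ckma lies at 1473 in brain and 78.7 to 149.2 in the retinas, the lens marker cryaa lies between 24.6 and 30.8 on all 4 arrays, and hbaa1 spreads from 597.5 to 6429 among the retinas.

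The leading genes, chosen on the 4 arrays compared, were read in the other retinas of the study. Both lesioned retinas, of days 2 and 14, lay on the retina side of the midpoint between brain and retina for 25 of the 25 leading genes in each direction. The 3 control retinas of days 3, 5 and 7 lay on the same side of brain as the retinas compared for the same genes. Brain was the lowest of the 12 arrays for all 25 genes of the retina side and the highest for all 25 of the brain side.

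Over all called genes at least 2-fold apart, the lesioned retinas stayed near their controls of the same day. For the 558 such genes higher in brain, the median difference of the lesioned array from its control was 0.02 on day 2 and 0.09 on day 14. On day 2 the lesioned array passed the midpoint toward brain in 42 of them, or 7.53%, and on day 14 in 28, or 5.02%. For the 459 higher in retina, the medians were -0.22 and -0.09, and 11 genes (2.4%) and 4 genes (0.872%) passed the midpoint.

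The genes that passed, named here after their values were seen, included gap43, which read 2682 in brain, 268.3 to 331.7 in the control retinas, 1675 in the lesioned retina of day 2 and 738.8 in that of day 14. The complement gene c7b read 294.8 in brain and 94.2 to 145.3 in the control retinas, but 2478 in the lesioned retina of day 2, above brain. Immune genes such as lcp1 (280.6), grna (361) and cd68 (518.3) read near or above their brain level in the lesioned retina of day 2, with 398.5, 320.8 and 524.3 in brain. Toward the other side, fabp1a, a fatty acid binding protein gene, read 41.1 in brain and 3853, 1619 and 6015 in the retinas, and 413.3 in the lesioned retina of day 2. With both lesioned arrays added to the retina group, gap43 (adjusted p = 0.072), c7b (0.974), lcp1 (0.0951), grna (0.276) and cd68 (0.218) were no longer called. Each of these lesioned values is 1 array and was not tested.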

How the data were processed

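Signal intensities were used as deposited. The submitters' processing notes name GCOS, Affymetrix's software, for the zebrafish arrays, with no version or setting. The deposited intensities were already scaled, since the trimmed mean of each of the 4 arrays compared was 499.7 to 499.8. The files give no counts, and the 4 arrays limit the precision. Of 15617 probe sets, 115 controls were left out. The platform annotation gave 10795 of the rest 1 gene symbol, 135 several and 4572 none, and 10711 gene IDs were found in the current RefSeq table. Genes are read by the probe set with the highest mean log2 signal over the 4 arrays.

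The log2 of the signal plus 50 was tested at the 9301 probe sets above the 40th percentile of the mean of brain and retina, with lmFit and eBayes with a trend in limma 3.58.1 (R 4.3.3), with Benjamini-Hochberg adjustment over all of them and calls at 0.05. The fit had 2 residual degrees of freedom and a prior of 5.17. Detection calls were not used. The procedure was run on simulated arrays in which brain was made to vary like the retinas. That run therefore could not test this assumption. No batch is labelled, and the 4 arrays were set apart from those of days 3, 5 and 7 by their control probe sets.

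The members and gene lists were chosen with earlier results of these data known, and the lists overlap. The rule for naming took the 25 genes with the largest called difference in each direction and, of each list, up to 6 called members with the largest differences. Other list members, and genes of no list, were chosen after their values were seen. Alternatives covered the added constant, the filter, normalization, the prior, the retinas used and the reading of several probe sets.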

Additional observations from a re-analysis of the deposited data

How the results depend on the processing

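The 1490 calls toward brain and 1090 toward retina stayed within 1.5 times under 13 alternatives, and not when the control retinas of days 3, 5 and 7 were added with no term for the array set, which gave 584 and 424; with such a term the counts were 1257 and 937. Leaving out 1 retina gave 1067 to 1687 calls toward brain and 735 to 1273 toward retina, with the fewest without the day 2 control. Of 265 called genes examined, 31 lost their call without 1 retina and 53 under any alternative other than the added retinas with no term, which took 102. The 265 are a part of the 905 genes called toward brain and 676 toward retina, so these losses do not give the share over all calls. Of the differences that changed sign, ckbb was 0.081, gapdhs 0.24 and glula 0.18 under quantile normalization. The difference of bhlhe40 ranged from -0.70 to 0.36 without 1 retina, was 0.02 without the day 2 control and was 0.14 with the lesioned retinas added. That of nr1d2a ranged from -1.04 to 0.12 without 1 retina and was 1.197 with 6 retinas and no term. With 6 retinas and a term, calls of snap25a (adjusted p = 0.0807) and cavin2b (0.104) were lost. The causes of these changes were not tested. Of the a and b pairs, 12 were opposite without a filter and 1 with 6 retinas and no term. With 6 retinas and a term 11 were, and 2 ribosomal genes were called, or 6 without a trend in the prior. Without a filter 15502 probe sets were tested, which gave 1605 and 1013 calls. Signals near the floor limit the size of the larger differences, and 1 brain array gives no measure of the spread between brains. No paired analysis was possible because the brain has 1 array.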
